A study of Mus musculus with 15 samples.

Results

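TRBJ2-4 is a joining (J) segment of the mouse T cell receptor beta chain (TCRβ) locus, and the segment used by NY8.3, a CD8 T cell clone that recognises the IGRP206–214 peptide on H-2Kd. Its receptors were taken as all TRBV sequences with a J segment of the TRBJ2 cluster and a CDR3 ending in the residues NTLYF, and they made up 5114 of the 59364 clonotypes in the series. A clonotype was a distinct nucleotide CDR3 in 1 library, so the same sequence in several libraries counted once in each. Of the 5114, 424 lay in tetramer-binding libraries and 4690 in tetramer-negative ones. The tables named J segments only by cluster, and the same 5 residues also end receptors of TRBJ1-3, which the cluster name kept apart.

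The study compared wild-type (WT) NOD mice, which develop autoimmune diabetes, with Ifngr-1-mutant NOD mice, which carry a mutation in a chain of the interferon-γ receptor, both at 125 days of age. The titles of the mutant samples carry the code GKO, which the labels do not spell out, and the labels do not give the sex of the mice. Cells of the spleen and of lymph nodes that do not drain the pancreas were pooled in each mouse and stained with 8 nM of H-2Kd tetramer carrying IGRP206–214, a beta cell autoantigen. Magnetic separation gave the tetramer-binding CD8 cells (TET) and, from the flow-through, CD8+CD44+ cells (CD8). TET libraries came from 3 WT and 4 mutant mice and CD8 libraries from 4 mice of each strain, and WT TET 4 was not analysed here. The tables hold receptor sequences only, so the purity of either fraction could not be checked against other genes.

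A TCRβ chain is built by joining a variable (V), a diversity (D) and a J segment, with bases trimmed from the ends and random bases added between them. The join lies in the CDR3, the loop that usually makes most contacts with the bound peptide. The J segment gives the end of the CDR3, and the V segment its start. Related T cells of a clone carry the same nucleotide CDR3, whereas equal amino acid CDR3s with different nucleotides can come from separate joining events.

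The ends of the segments are shown first, since they define the receptors. Untrimmed TRBJ2-4 receptors kept the residues SQNTLYF. The 21 bases printed here were found in 96.7% of the 2096 clonotypes with that ending, and their last 15 bases in 99.2% of all 5114. The TRBJ1-3 end differs from it at 5 of 15 bases and was found in 99.0% of 2708 TRBJ1-3 clonotypes.

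TRBJ2-4, SQNTLYF: agtcaaaacaccttgtacttt
TRBJ2-4, NTLYF: aacaccttgtacttt
TRBJ1-3, NTLYF: aatacgctctatttt

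The receptors that follow were the largest TRBJ2-4 receptors of the 7 TET libraries. All used TRBV13. The capitals mark the bases between the first 5 residues and the NTLYF ending, and the lower-case start tgtgccagcagtgat was the commonest among TRBV13 clonotypes of all J segments that start with CASSD (78.6% of 5458).

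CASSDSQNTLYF, sequence 1: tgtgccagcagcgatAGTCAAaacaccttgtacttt
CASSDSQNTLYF, sequence 2: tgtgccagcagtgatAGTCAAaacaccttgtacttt
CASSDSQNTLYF, sequence 3: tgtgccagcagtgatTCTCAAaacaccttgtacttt
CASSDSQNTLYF, sequence 4: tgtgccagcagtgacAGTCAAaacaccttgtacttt
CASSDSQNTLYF, sequence 5: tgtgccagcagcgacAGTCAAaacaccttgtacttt
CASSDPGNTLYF: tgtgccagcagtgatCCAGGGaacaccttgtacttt
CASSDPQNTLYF: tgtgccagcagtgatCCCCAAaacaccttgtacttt
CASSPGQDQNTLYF: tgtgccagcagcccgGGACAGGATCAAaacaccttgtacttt

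Total counts ran from 2536 to 60164 per TET library and from 17116 to 32856 per CD8 library. WT TET libraries held few TRBJ2-4 clonotypes, 9, 18 and 11, against 84, 144, 119 and 39 in mutant TET and 162 to 937 in CD8 libraries. WT TET 2 and mutant TET 4 had 7 TRBJ2-4 nucleotide sequences in common, which made up 52.9% of the TRBJ2-4 counts of WT TET 2 and 92.1% of those of mutant TET 4. In WT TET 2, 6 of the 18 clonotypes had at least 10 times as many counts in another library. The part of carry-over between libraries in this overlap was not tested, and values without this pair of libraries stand beside some of the results only.

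TRBJ2-4 took a larger share of the receptor counts in most tetramer-binding libraries than in any CD8 library, although its share of clonotypes was similar. It made up 28.0%, 21.7% and 12.6% of the counts in WT TET 1 to 3 and 16.4%, 6.45%, 4.81% and 43.4% in mutant TET 1 to 4. In CD8 libraries it ranged narrowly, from 8.41 to 8.92% in WT and from 8.83 to 9.64% in mutant mice. Mutant TET 2 and 3 lay below every CD8 library, and the other 5 TET libraries lay above. The 95% exact binomial intervals, which cover counting error only, ran from 4.53 to 5.10% for the lowest and from 43.0 to 43.8% for the highest TET library.

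The mean of the strain means was 19.3% of counts in TET and 9.06% in CD8, a difference of 10.2 percentage points. The two-sided exact permutation test with the fraction reassigned within each strain gave p = 0.0310, which was 0.147 after adjustment over the 19 exact tests. Without WT TET 2 and mutant TET 4 the difference was 5.71 points (exact p = 0.0876, adjusted 0.217), and without mutant TET 3 it was 12.4 points (exact test, adjusted p = 0.0388). A larger share of counts could not be told apart from more receptor RNA per cell.

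By clonotypes, where each sequence counts once whatever its size, TRBJ2-4 made up 8.82%, 14.3% and 11.3% of WT TET libraries and 8.43%, 6.55%, 7.30% and 9.92% of mutant TET libraries. The CD8 libraries gave 7.94 to 8.52% in WT and 8.80 to 9.53% in mutant mice. The TET and CD8 ranges overlapped, and the difference of the means, 1.17 points, did not pass the exact test (p = 0.273, adjusted 0.378). The edgeR quasi-likelihood test on clonotype numbers per J segment gave a small fall instead (log2 fold change -0.20, SE 0.09, adjusted p = 0.0413). In that comparison 91.7% of the 12 J segments passed. Mutant TET libraries held 386 of the 424 TET clonotypes. The call did not hold when the mouse was a block (-0.11, edgeR adjusted p = 0.346), nor without mutant TET 2 (-0.068), mutant TET 3 (-0.15), WT CD8 2 or any 1 of the mutant CD8 libraries.

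**Figure D1:**
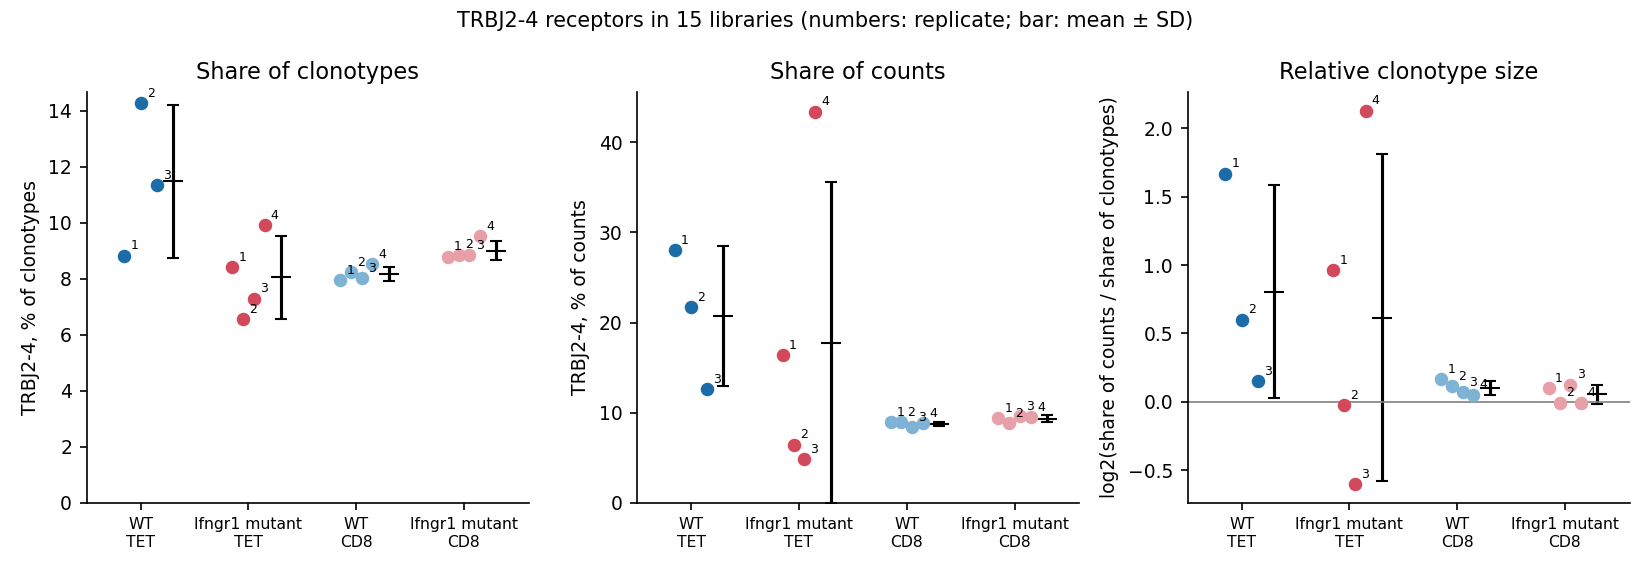
TRBJ2-4 as a percentage of clonotypes (left) and of counts (middle) and the log2 ratio of the latter to the former (right) in 15 libraries, with points numbered by replicate and bars giving the mean ± SD of each group. The CD8 libraries lie close together in all panels, whereas the TET shares of counts spread from 4.81 to 43.4%.

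The ratio of the share of counts to the share of clonotypes measures how large TRBJ2-4 clonotypes were relative to the rest of their library. On the log2 scale it was 1.67, 0.60 and 0.15 in WT TET and 0.96, -0.02, -0.60 and 2.13 in mutant TET. It lay between -0.01 and 0.17 in the 8 CD8 libraries. TET exceeded CD8 by 0.63 on average, which did not pass (exact p = 0.0992, adjusted 0.209).

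Large TRBJ2-4 clonotypes, of at least 1% of the counts, were found in TET libraries and in no CD8 library. There were 26 of them, 4, 4 and 5 in WT TET 1 to 3 and 4, 1, 0 and 8 in mutant TET 1 to 4, or 5 in mutant TET without mutant TET 4. For all other J segments the same count was 113 in TET and 1 in CD8. The cut-off is not equal across libraries, since a clonotype of mean size lies further below it where there are more clonotypes. The libraries held 97 to 126 clonotypes in WT TET, 393 to 2199 in mutant TET and 2040 to 9827 in CD8. Among the 10 largest clonotypes of each library, TRBJ2-4 held 1, 2 and 1 in WT TET, 4, 1, 1 and 6 in mutant TET, and 0 to 3 in CD8.

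The receptor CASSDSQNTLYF led in 4 of the 7 TET libraries. It had 1127 and 2291 counts in WT TET 1 and 2, where it was the largest receptor of any J segment, at 22.7% (95% interval 21.5 to 23.9%) and 15.3% (14.7 to 15.9%) of the counts. It had 949 and 7816 counts in mutant TET 1 and 4, where it ranked 2 among all receptors, at 5.49% and 12.99%. Mutant TET 2 and 3 held 7 counts each, and WT TET 3 held 0 of 2536, which allows a share of up to 0.118%. The receptor was thus large in both strains and near or below detection in others of both strains.

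Its counts came from 5 nucleotide sequences, and the same one was not the largest in every mouse. Sequence 2 was found in each of the 6 TET libraries that held the receptor and was its main sequence in WT TET 1 and mutant TET 1, 2 and 3, with 1094 and 804 counts in WT TET 1 and 2 and 552, 7, 7 and 1764 in mutant TET 1 to 4. Sequence 1 carried 5510 of the 7816 counts of mutant TET 4 and 146 counts in WT TET 2. Sequence 3 was the largest TRBJ2-4 clonotype of WT TET 2, with 1341 counts, and had 397 in mutant TET 1. Sequence 4 was found at 542 counts in mutant TET 4, and sequence 5 at 33 counts in WT TET 1. No D segment was named for any of the 5 sequences. Sequences 1 and 4 each differ from sequence 2 at 1 base, and the part of copying or reading errors in them was not tested.

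In CD8 libraries the same receptor was rare. It had 29 counts in WT CD8 1 and 0 in WT CD8 2 to 4, and 10, 21, 14 and 4 counts in the mutant CD8 libraries. The 23 counts of sequence 2 in WT CD8 1 came from the mouse whose TET library held 1094 of it. WT CD8 2 and mutant CD8 4 held 0 counts of it, where the same-numbered TET libraries held 804 and 1764. Mutant CD8 1 to 3 held 10, 8 and 14 counts of it, against 552, 7 and 7 in the same-numbered TET libraries. The part of incomplete tetramer separation or carry-over in these counts was not tested.

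The leading receptors of the other TET libraries were smaller. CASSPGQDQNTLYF had 64 counts in WT TET 3, 2.52% of the library (95% interval 1.95 to 3.21%), and 2 counts each in mutant TET 1 and 2. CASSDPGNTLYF made up 2.13% of mutant TET 2, and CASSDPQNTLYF 0.874% of mutant TET 3. Both of the latter were found in their own library alone.

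The leading receptors of 6 of the 7 TET libraries, WT TET 3 being the exception, had a shared build, a TRBV13 start CASSD, 2 residues and the NTLYF ending, 12 residues in all. This class was noticed in the data, so its values are a description with no test. It took 81.1%, 92.7% and 0% of the TRBJ2-4 counts in WT TET 1 to 3 and 55.4%, 37.0%, 18.8% and 88.6% in mutant TET 1 to 4. In the 8 CD8 libraries it took 0.121 to 2.42%. By number it made up 33.3%, 38.9% and 0% of the TRBJ2-4 clonotypes in WT TET, 4.76%, 2.78%, 1.68% and 23.1% in mutant TET, and 0.357 to 1.85% in CD8.

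**Figure D2:**
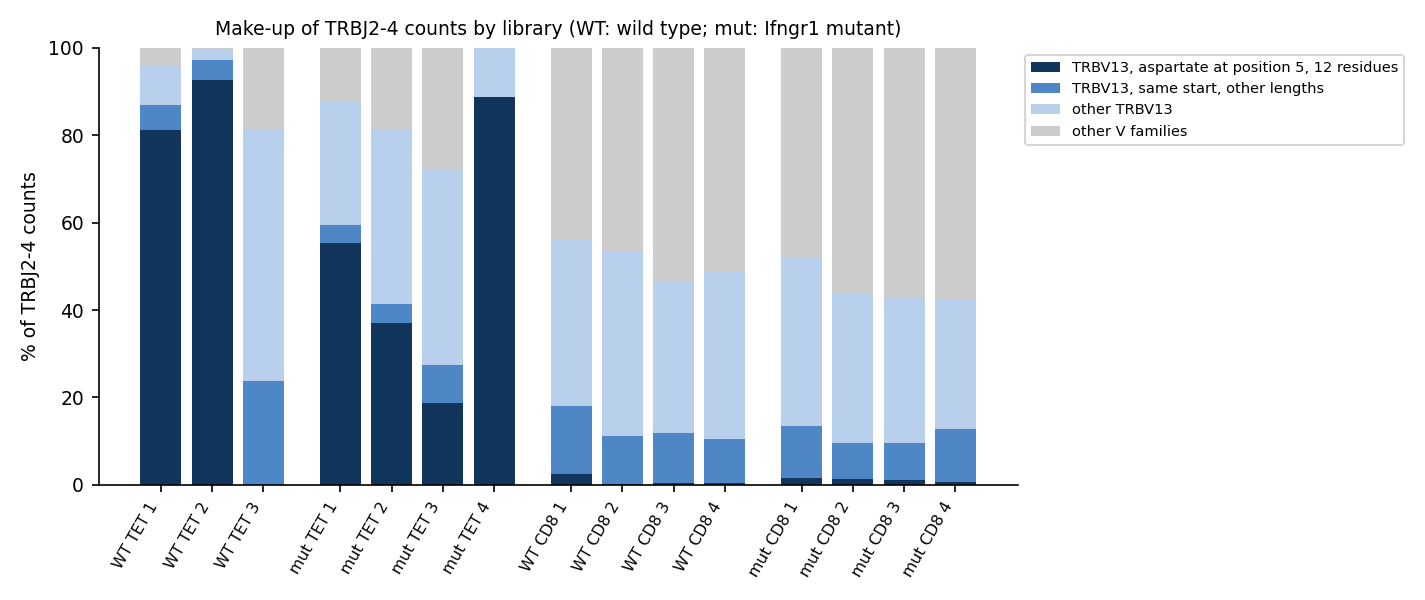
Make-up of the TRBJ2-4 counts of each library, in percent, by V family, by aspartate at position 5 in the TRBV13 start named in the text, and by length. The 12-residue class fills 18.8 to 92.7% of the bars in 6 of the 7 TET libraries, is missing in WT TET 3 and reaches 2.42% at most in CD8.

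The 2 residues in the middle varied. Serine and glutamine, the residues that untrimmed TRBJ2-4 gives itself, held 12197 TET counts by 5 nucleotide sequences. Proline and glutamate held 6214 by 2 sequences, alanine and glutamine 6061 by 1, and aspartate and lysine 2456 by 1. The remaining 6 pairs found in TET held 1270 counts or fewer. Each of the first 4 pairs had most of its counts in mutant TET 4 and was also found in WT TET 2.

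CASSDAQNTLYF: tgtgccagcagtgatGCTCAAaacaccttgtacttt
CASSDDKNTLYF: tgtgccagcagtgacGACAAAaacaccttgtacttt
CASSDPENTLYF, sequence 1: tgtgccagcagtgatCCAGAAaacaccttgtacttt
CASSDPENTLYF, sequence 2: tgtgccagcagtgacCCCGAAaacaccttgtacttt
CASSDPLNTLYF: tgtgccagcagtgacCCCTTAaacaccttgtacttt

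These sequences are shown because they were shared between mice or reached the largest counts after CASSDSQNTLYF. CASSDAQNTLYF had 5703 counts in mutant TET 4 and 358 in WT TET 2. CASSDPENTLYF had 3171 and 2787 counts of its sequences in mutant TET 4, and 212 and 44 in WT TET 2. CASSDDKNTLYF was found in WT TET 1, WT TET 2 and mutant TET 4, at 3, 102 and 2351 counts. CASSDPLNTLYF was instead shared by mutant TET 1 and 2, at 548 and 26 counts, and lay outside that pair of libraries.

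The V partners of TRBJ2-4 differed between the fractions. TRBV13, the V family that NY8.3 is reported to use, made up 77.8%, 83.3% and 63.6% of TRBJ2-4 clonotypes in WT TET and 46.4%, 47.2%, 47.9% and 64.1% in mutant TET. In CD8 it made up 34.0 to 38.1% in WT and 30.1 to 36.1% in mutant mice, so every TET library lay above every CD8 library. The means of the strain means were 63.2% and 34.8%, a difference of 28.4 points, and the exact permutation p of 0.000408 was the smallest that the test allows (adjusted 0.00776). This was the 1 result of the 19 exact tests that passed. Without WT TET 2 and mutant TET 4 the difference was 24.2 points (exact test, adjusted p = 0.0248). Over the 7 mice with both libraries it was also 28.4 points, higher in TET in each (exact sign-flip p = 0.0156, the smallest possible, adjusted 0.0938 over 6 measures with the mouse as a block).

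TRBV13 was common in TET with other J segments too. In the same libraries it made up 49.9% ± 6.87 (SD, n = 7) of the clonotypes with other J segments and 61.5% ± 15.1 of those with TRBJ2-4. TRBJ2-4 was higher in 7 of 7 TET libraries, by 11.5 points on average, and the exact sign-flip p of 0.0156 was the smallest possible (adjusted 0.0625 over 12 such tests). The size of the difference varied widely, at 25.1, 20.4 and 10.1 points in WT TET 1 to 3. It was 1.74, 1.82 and 2.46 points in mutant TET 1 to 3, which held the most TRBJ2-4 clonotypes, and 19.2 points in mutant TET 4. In CD8 the difference was -0.46 points (exact p = 0.633, adjusted 0.690), with TRBJ2-4 higher in 5 of 8 libraries. Against TRBJ1-3 alone TRBJ2-4 was higher in 6 of 7 TET libraries, by 11.3 points, which did not pass (exact p = 0.141, adjusted 0.216 over 6 tests).

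**Figure D3:**
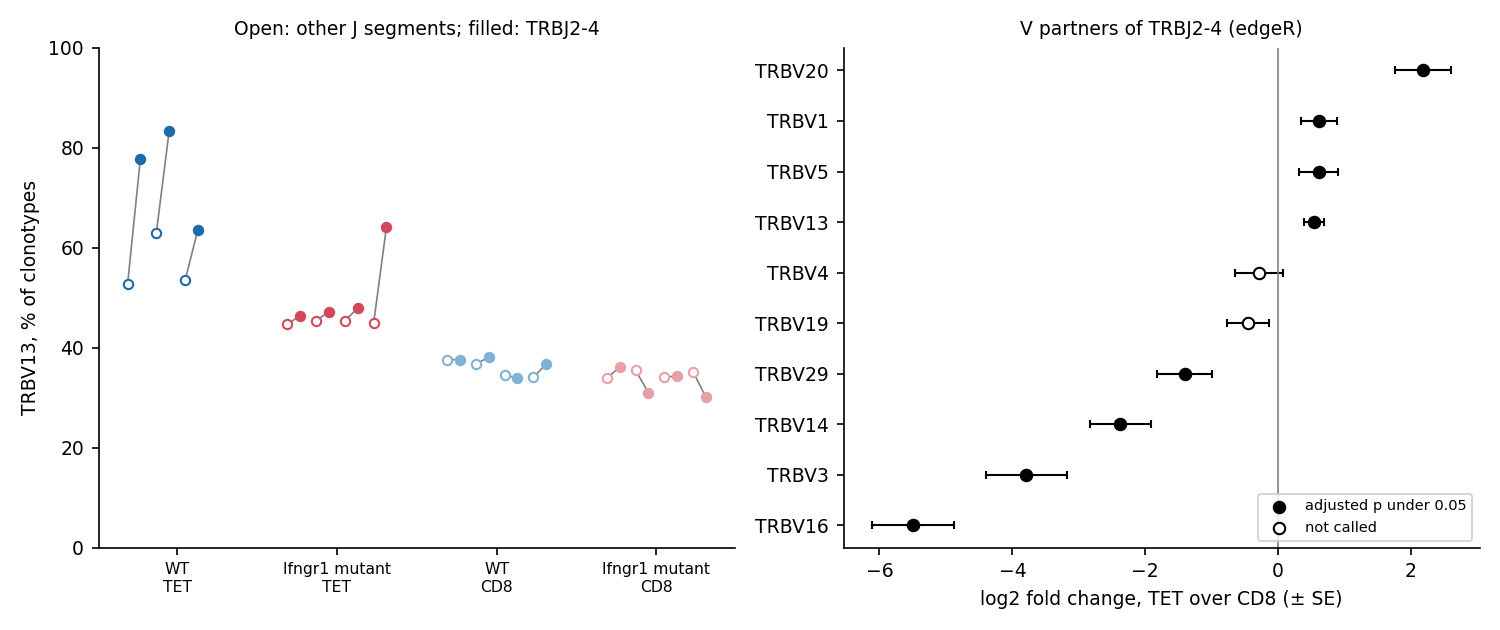
Left, TRBV13 as a percentage of clonotypes with other J segments (open) and with TRBJ2-4 (filled) in each of 15 libraries, joined by a line. Right, edgeR log2 fold changes (± SE), TET over CD8, of clonotypes that pair TRBJ2-4 with each V family tested, without TRBV12, which had 0 TET clonotypes; filled points passed an adjusted p of 0.05.

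TRBJ2-4 was found with 19 V families, of which 11 had enough clonotypes to test in TET against CD8. A pair entered the test by reaching a minimum share of clonotypes in a few libraries. The TRBV20 and TRBV5 pairs reached it only or mainly in TET libraries. Those of TRBV16, TRBV3, TRBV14, TRBV29 and TRBV12 reached it only or mainly in CD8 libraries. The direction of these pairs was thus largely set by entry, and their calls add no support to it. TRBV31 with TRBJ2-4, at 0.340% of all clonotypes in TET and 0.158% in CD8, was not tested. The edgeR quasi-likelihood test called 4 higher and 5 lower in TET, where 74.4% of all 90 V and J pairs tested were called (38.9% higher and 35.6% lower). The median log2 fold change was -0.45 over the 11 pairs and 0.02 over the 90. With TMM factors, which shifted the median of all pairs by -0.40, 1 TRBJ2-4 pair was higher and 6 were lower, and the higher share of all calls went from 52.2% to 34.4%.

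TRBV20 gave the largest rise by clonotypes among the 11 pairs tested, which it entered through TET libraries only. Its pair with TRBJ2-4 made up 0%, 0.794% and 0% of all clonotypes in WT TET, 0.401%, 0.546%, 0.613% and 0.509% in mutant TET, and 0.0882 to 0.226% in CD8. The 4 mutant TET libraries lay above all CD8 libraries, and 2 of the 3 WT TET libraries held none. The log2 fold change was 2.18 (SE 0.42, edgeR adjusted p = 6.4e-07). These receptors were small, at 0.898% ± 1.23 (SD, n = 7) of the TRBJ2-4 counts in TET, and by counts the fold change was -0.43 (edgeR adjusted p = 0.752). With J segments of any kind, TRBV20 accounted for 4.70% ± 1.93 of the clonotypes in TET and 1.74% ± 0.285 in CD8, and the pair was not tested against its pairs with other J segments.

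The pair of TRBV13 with TRBJ2-4 rose from 2.98% ± 0.176 (SD, n = 8) of all clonotypes in CD8 to 6.12% ± 3.06 (n = 7) in TET. The log2 fold change was 0.53 (SE 0.15, edgeR adjusted p = 0.000815), and the call was lost with TMM factors (0.13, adjusted p = 0.451) and with DESeq2 (0.33, adjusted p = 0.0535). TRBV1 (0.62, adjusted p = 0.0289) and TRBV5 (0.61, adjusted p = 0.0490) passed by edgeR with less margin. Both lost the call with DESeq2 and TMM factors and had negative fold changes by counts (-0.66 and -0.47).

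The TET libraries held 5545 clonotypes in all, so pairs were compared by share. The pairs of TRBV16, TRBV3, TRBV14, TRBV29 and TRBV12 entered the test only or mainly through CD8 libraries, which largely set the direction of their calls. TRBV16, TRBV3, TRBV14 and TRBV29 with TRBJ2-4 made up 0.0143%, 0.0231%, 0.0513% and 0.242% of all clonotypes in TET on average, and 0.865%, 0.476%, 0.457% and 0.446% in CD8. With J segments of any kind these families made up 0.579%, 1.55%, 1.85% and 3.73% of TET and 7.91%, 4.63%, 5.20% and 5.99% of CD8 clonotypes. TRBV16 with TRBJ2-4 was found as 1 clonotype in TET and 489 in CD8 (log2 fold change -5.49, SE 0.61, edgeR adjusted p = 2.1e-17). TRBV3 was found as 2 and 262 (-3.79, SE 0.61, adjusted p = 3.6e-09) and TRBV14 as 6 and 260 (-2.38, SE 0.46, adjusted p = 8.8e-07). TRBV29 fell less, with 10 and 246 clonotypes (-1.41, SE 0.41, adjusted p = 0.00130). TRBV12 was found as 0 of 5545 TET clonotypes and 298 CD8 clonotypes, at least 10.2-fold lower when 3 clonotypes over all TET libraries are taken as the limit. The TRBV12 family with any J segment made up 6.37% of CD8 and 0.0715% of TET clonotypes, a difference that was not tested. TRBV15, which was not tested, was also at 0 in TET, against 150 in CD8, and at least 5.15-fold lower. TRBV19 (-0.45, adjusted p = 0.178) and TRBV4 (-0.29, adjusted p = 0.463) did not pass.

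CDR3 length was measured in residues, including the first cysteine and the last phenylalanine. Counting each clonotype once, the mean length of TRBJ2-4 receptors was 12.7, 13.1 and 14.5 in WT TET, 14.0, 14.3, 14.2 and 13.2 in mutant TET, and 14.1 to 14.3 in CD8. The TET minus CD8 difference was -0.552 residues on average, which did not pass (exact p = 0.0539, adjusted 0.204). Weighted by counts, a comparison added after the data were seen, the difference was -1.10 residues (exact p = 0.0106, adjusted 0.0478 over the tests of that setting). The weighted means were 12.3, 12.2 and 14.5 in WT TET, 12.6, 13.5, 13.8 and 12.1 in mutant TET, and 14.0 to 14.2 in CD8. The weighted comparison was not repeated without WT TET 2 and mutant TET 4, which had the lowest values of their strains. All other clonotypes together were also shorter by counts in TET, at 13.3 ± 0.486 (SD, n = 7), than in CD8, at 13.8 ± 0.0554 (n = 8), which was not tested. Within TET libraries the weighted difference of TRBJ2-4 from them was -0.274 residues, which did not pass (exact sign-flip p = 0.297, adjusted 0.396 over 12 tests). TRBJ2-4 was longer in 3 of the 7.

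The difference lay at 12 residues. Receptors of that length held 81.1%, 92.8% and 0% of the TRBJ2-4 counts in WT TET and 70.2%, 42.3%, 22.0% and 88.6% in mutant TET, against 7.60 to 15.7% in CD8. By clonotypes the shares were smaller, 20.9% ± 18.9 (SD, n = 7) in TET and 8.83% ± 2.03 (n = 8) in CD8. WT TET 3 held no TRBJ2-4 receptor of 12 residues, and its receptors centred on 14 and 15. The other J segments also held more 12-residue receptors in TET, at 18.4 to 59.8% of their counts, than in CD8, at 10.8 to 13.7%. The higher share at this length was thus not particular to TRBJ2-4.

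**Figure D4:**
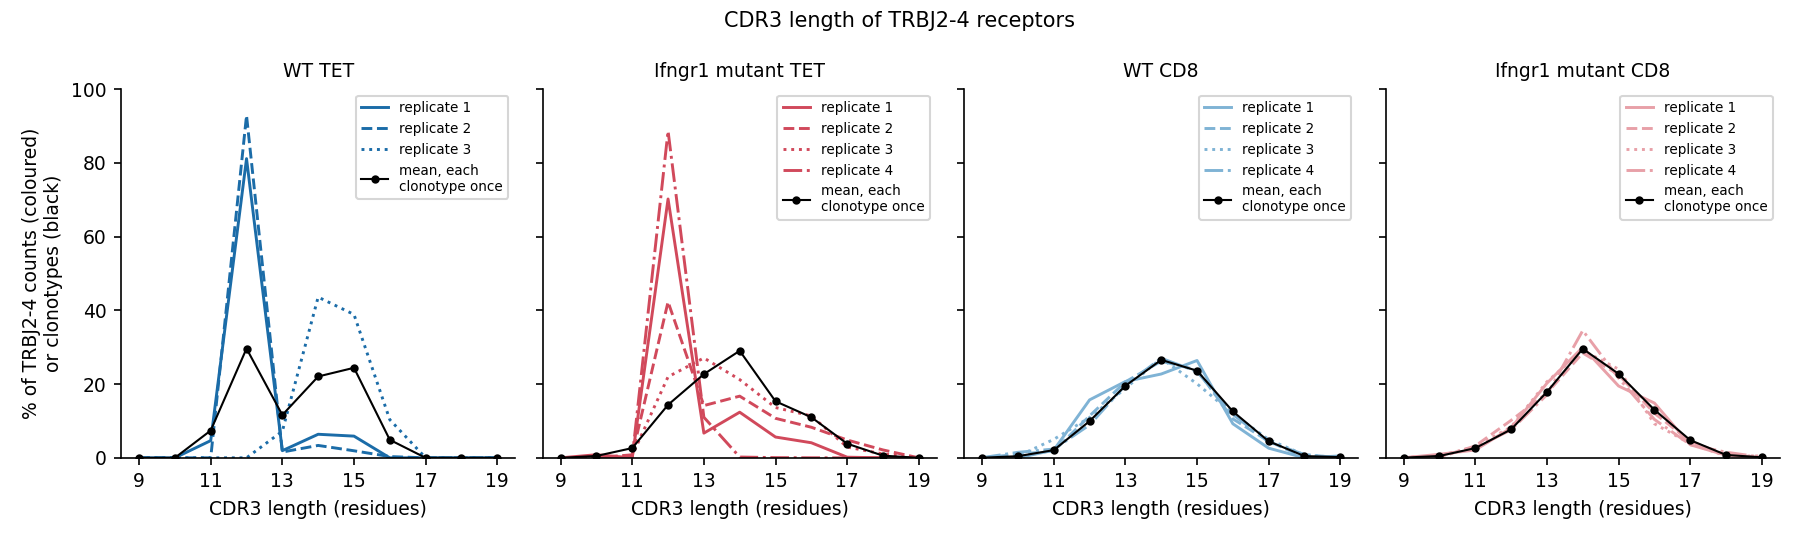
CDR3 length of TRBJ2-4 receptors in residues against percent of TRBJ2-4 counts, with 1 coloured line per library, and, in black, the mean percent when each clonotype counts once. A peak at 12 residues stands out by counts in 5 of the 7 TET libraries and in no CD8 library.

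Against TRBJ1-3, which has the same 5-residue ending, TRBJ2-4 receptors had a mean length of 14.2 ± 0.0689 residues (SD, n = 8) against 14.2 ± 0.0723 in CD8. The difference of 0.0353 did not pass (exact sign-flip p = 0.180, adjusted 0.216 over 6 tests added after the data were seen). In TET it was -0.446 (exact p = 0.156, adjusted 0.216), with TRBJ2-4 longer in 2 of 7 libraries. All other clonotypes together averaged 13.9 residues in CD8, and TRBJ2-4 was longer in 8 of 8 libraries, by 0.342 residues. The exact sign-flip p of 0.00781 was the smallest possible (adjusted 0.0469 over 12 tests added after the data were seen). In TET the difference was -0.0800 (exact p = 0.750, adjusted 0.750). The NTLYF rule leaves out TRBJ2-4 receptors trimmed further, which fall among the other clonotypes. The part of this rule in the difference was not tested.

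Aspartate at position 5, noticed in the leading receptors and therefore not tested, was more frequent in most TET libraries. It was found in 44.4%, 55.6% and 45.5% of clonotypes in WT TET, 25.0%, 16.7%, 24.4% and 51.3% in mutant TET, and 14.5 to 19.1% in CD8. By counts it reached 67.3% ± 23.9 (SD, n = 7) in TET and 22.2% ± 4.16 (n = 8) in CD8. Mutant TET 2 lay within the CD8 range by clonotypes and above it, at 51.2% against 29.2% at most, by counts. Most clonotypes with this aspartate used TRBV13, 102 of 113 in TET, 289 of 322 in WT CD8 and 377 of 437 in mutant CD8. Of TRBV13 clonotypes with TRBJ2-4, 19 of 29 in WT TET and 83 of 189 in mutant TET had it. In CD8 it was found in 289 of 688 in WT and 377 of 907 in mutant mice. The part of TRBV13 use in the difference was not tested. Position 4 was serine in 72.4% of TET and 75.1% of CD8 clonotypes, and glycine in 12.3% and 13.3%.

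The residue before the NTLYF ending was glutamine, which the segment encodes, in 71.7% ± 15.4 (SD, n = 7) of TET and 78.3% ± 1.88 (n = 8) of CD8 clonotypes. Lysine was found there in 28 of the 424 TET clonotypes, at 10.5% ± 11.4 as a mean of the 7 libraries and 6.71% ± 5.78 (n = 6) without WT TET 1, against 4.98% ± 1.16 in CD8. The residues SQNTLYF ended 47.6% of TET and 40.8% of CD8 clonotypes as means of the strain means, which did not differ beyond the spread (6.84 points, exact p = 0.299, adjusted 0.378). These residues do not show that the J end was untrimmed, since sequence 3 of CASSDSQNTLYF has them with other bases for serine. All 11 clonotypes of WT TET 3 had glutamine before the ending, and 81.8% of them ended in SQNTLYF.

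TRBD2, the D segment just before the TRBJ2 cluster, was named in 28.4% ± 11.7 (SD, n = 7) of TET and 44.4% ± 2.56 (n = 8) of CD8 clonotypes with TRBJ2-4. Receptors with no D segment named made up 39.7% ± 23.1 and 26.8% ± 2.12, and by counts 55.4% ± 40.05 and 28.6% ± 2.11. In TET, no D was named for 92.2% and 95.6% of the TRBJ2-4 counts in WT TET 1 and 2 and for 99.6% in mutant TET 4, but for 3.13% in WT TET 3. The difference between TRBJ2-4 and other J segments in this share did not pass in TET (11.6 points, exact p = 0.219, adjusted 0.328).

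Between the strains, TRBJ2-4 made up a smaller mean share of TET clonotypes in mutant mice, 8.05% ± 1.47 (SD, n = 4), than in WT mice, 11.5% ± 2.73 (n = 3), with overlapping values. The exact test gave p = 0.114 (adjusted 0.217). In CD8 the order was the opposite, 9.01% ± 0.353 in mutant and 8.18% ± 0.256 in WT mice (n = 4 each), and the groups did not overlap. The exact p of 0.0286 was the smallest that 4 against 4 allows and was 0.147 after adjustment. Over the 7 mice with both libraries, which leaves out WT CD8 4, the TET minus CD8 difference averaged -0.959 points in mutant and 3.41 points in WT mice. The difference between the strains, -4.37 points, also had the smallest possible exact p of 0.0286 (adjusted 0.147).

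The edgeR test gave a log2 fold change, mutant over WT, of -0.64 in TET (SE 0.28, adjusted p = 0.142) and of 0.13 in CD8 (SE 0.06, adjusted p = 0.119). Neither passed. The test called 0 of 12 J segments in TET (0%, with 3 at an unadjusted p under 0.05, and 0 by DESeq2) and 1 of 12 (8.33%) in CD8. The fall in TET passed with TMM factors (-0.84, adjusted p = 0.0321) and without mutant TET 4 (-0.70, adjusted p = 0.0491), and the CD8 rise passed without WT CD8 4 (0.16, adjusted p = 0.0499). By counts the strains could not be separated in TET, where the mutant mean was 17.8% ± 17.8 and the WT mean 20.8% ± 7.77 (exact p = 0.857, adjusted 0.857). That difference turned positive without mutant TET 2 or 3, or without WT TET 1, and reached 1.32 points.

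TRBV13 was the 1 V partner of TRBJ2-4 with enough clonotypes to test between the strains in TET. Its pair with TRBJ2-4 made up 6.86%, 11.9% and 7.22% of all clonotypes in WT TET and 3.91%, 3.09%, 3.49% and 6.36% in mutant TET, with no overlap. The log2 fold change was -1.23 (SE 0.36, edgeR adjusted p = 0.0206), where 10% of 10 pairs passed. The TRBV13 family with any J segment was also lower in the mutant libraries, at 44.8 to 46.8% of all clonotypes against 54.6 to 65.9% in WT TET, which was not tested. Among TET clonotypes of at least 0.1% of counts, the TRBV13 share of TRBJ2-4 was instead higher in mutant than in WT mice, by 23.1 points (exact p = 0.143, adjusted 0.429 over the tests of that setting). The call was lost with DESeq2 (-0.98, adjusted p = 0.142), with TMM factors (-1.03, adjusted p = 0.0546) and by counts (-0.24, adjusted p = 0.979). It was also lost without WT TET 2 (-0.91, adjusted p = 0.582), mutant TET 1 (-1.16, 0.0647), mutant TET 2 (-1.03, 0.0935) or mutant TET 3 (-1.08, 0.0837), and when WT TET 2 and mutant TET 4 were both left out (-1.05, 0.423).

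In CD8, 13 TRBJ2-4 pairs were tested between the strains and TRBV14 passed, where 0.787% of 127 pairs did. It made up 0.294%, 0.376%, 0.300% and 0.361% of all clonotypes in WT CD8 and 0.489%, 0.647%, 0.585% and 0.600% in mutant CD8. The groups did not overlap, and the log2 fold change was 0.79 (SE 0.21, edgeR adjusted p = 0.0330). The call was lost with DESeq2 (0.78, adjusted p = 0.274), and without mutant CD8 2, 3 or 4 or WT CD8 1, 3 or 4, with fold changes of 0.72 to 0.84 throughout. TRBV13 with TRBJ2-4 did not differ beyond the spread, at 2.73 to 3.14% in WT and 2.75 to 3.18% in mutant CD8. Length, relative size and the full ending did not pass between the strains in either fraction.

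TRBJ1-3, which gives the same last 5 residues from other bases, served as the comparison segment. By clonotypes the edgeR test over both strains gave it a rise in TET (log2 fold change 0.60, adjusted p = 3.0e-07). For TRBJ2-4 that test gave a small fall, which did not hold with the mouse as a block. The mean TRBJ1-3 share was higher in TET than in CD8 in mutant mice (6.05% and 4.09%) and lower in WT mice (3.58% and 4.68%). The TRBJ2-4 means went the other way, 8.05% and 9.01% in mutant and 11.5% and 8.18% in WT mice. By counts TRBJ1-3 made up 3.68%, 0.909% and 4.02% of WT TET and 4.98%, 4.88%, 4.89% and 0.121% of mutant TET, against 3.66 to 5.76% in CD8. It was lowest in WT TET 2 and mutant TET 4, where TRBJ2-4 made up 21.7% and 43.4%. The relative size of TRBJ2-4 exceeded that of TRBJ1-3 in 5 of 7 TET libraries, by 1.83 ± 2.71 (SD, n = 7) on the log2 scale (0.93 without mutant TET 4; exact sign-flip p = 0.0938, adjusted 0.216 over 6 tests), and in CD8 the difference was -0.01 (exact p = 0.789). TRBJ1-3 receptors with the CASSD start and 2 residues before NTLYF were found in 2 of 7 TET libraries, at 0.0173% and 0.223% of all counts in mutant TET 1 and 3, and made up a mean of 0.0281% of CD8 counts.

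The 5114 clonotypes gave 4524 receptors by V family and amino acid CDR3, and 315 of these (6.96%) were found in more than 1 library, against 7.44% of 41156 receptors with other J segments. Of 374 receptors in TET and 4220 in CD8, 70 were found in both, 18.7% of the first and 1.66% of the second. For the other J segments these shares were 19.3% and 2.08%, and no difference was tested. Within TET, 29 receptors were found in at least 2 libraries, 5 in at least 3 and 1, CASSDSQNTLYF, in at least 4. No receptor was found in all 8 CD8 libraries. The most widespread, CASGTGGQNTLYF and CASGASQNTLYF, were found in 6 each, with 0 counts in TET.

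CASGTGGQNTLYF, a sequence in 2 CD8 libraries: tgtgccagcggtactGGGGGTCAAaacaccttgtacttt
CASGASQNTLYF, a sequence in 4 CD8 libraries: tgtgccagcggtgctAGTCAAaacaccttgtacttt

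These are shown as the counterparts of the TET receptors, with the same ending, the same V family and glycine in place of serine at position 4. They were small, at means of 0.0195% ± 0.0176 and 0.0171% ± 0.0137 (SD, n = 8) of CD8 counts. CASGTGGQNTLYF was made by 5 nucleotide sequences and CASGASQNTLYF by 3.

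The NTLYF ending left out TRBJ2-4 receptors whose end was trimmed further. Assigned by the last 12 bases instead, TRBJ2-4 had 5639 clonotypes, 535 of them without the ending, 37 in TET and 498 in CD8. One of these, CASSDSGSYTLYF with TRBV13, had 7893 counts in mutant TET 4, or 13.1% of the library, which was more than any receptor with the full ending there. It had 7, 484 and 35 counts in WT TET 1 to 3. It was chosen for mention after its values were seen.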

How the data were processed

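TCRβ libraries of 15 samples were made by 5′RACE with 9-nt molecular identifiers, per the labels' protocols. Each table that the authors deposited gives a count per nucleotide CDR3 and its fraction of the library. The sources used here name no clonotype caller or build, and leave unstated if a count is of reads or of molecules. The fraction column was not used for shares, which were recomputed from the deposited counts after 4 alpha chain entries were left out. The members and lists were chosen with earlier results of these data known. Named were TRBJ2-4, TRBJ1-3, V pairs that passed (and TRBV13), the largest receptor of each TET library, and those in at least 4 TET libraries; others were chosen after their values were seen.

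J segments were assigned by cluster and the last 5 residues, which left 12.5% of clonotypes unassigned. Clonotypes per J segment, or per V family and J segment, were tested with edgeR 4.0.16 (quasi-likelihood, minimum count 10, strain as covariate for TET against CD8) with Benjamini-Hochberg adjustment over all rows tested. The library size was all clonotypes of the library, unassigned ones included. Single values were compared by two-sided exact permutation tests (Python 3.11.15), adjusted over 19. On simulated data with 4-fold changes the pair test recovered 15 of 15 changed pairs in TET against CD8, 2 of 3 between strains in TET and 19 of 19 in CD8, and called 0, 0 and 1 of the unchanged pairs. The simulated spread between libraries was a fixed value that was not estimated from these data. These figures therefore do not give the reliability of the calls at the spread of the TET libraries. Alternatives included DESeq2 1.42.0, TMM factors, thinning to 2536 counts and leaving out each library. A sequence with 0 counts allows up to 3 counts. Nothing says that libraries of a group were prepared separately beyond being different mice.

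TET and CD8 libraries with the same strain and number were paired as 1 mouse, because the design text speaks of 4 mice of each strain. Deviations of J use from the group mean, over 12 segments, correlated between them with r of -0.440, -0.490 and -0.594 for WT mice. For mutant mice r was -0.0346, -0.0458, 0.440 and 0.612, so the pairing rests on the design text.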

Additional observations from a re-analysis of the deposited data

Results flagged for a closer look

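In 27 groups of 4 values checked for a sample far from the others, 3 stood out, where chance gives about 1 in 20. Mutant CD8 4 had the highest share of TRBJ2-4 clonotypes of its group, 9.53%, against 8.80 to 8.86% in the other 3. Mutant TET 4 had TRBV13 in 64.1% of its TRBJ2-4 clonotypes, against 46.4 to 47.9%; it is also the library that shares sequences with WT TET 2. In mutant CD8 1, TRBV13 took 52.1% of the TRBJ2-4 counts, the highest of its group.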

How the results depend on the processing

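Of 421 values of the main comparisons under an alternative, 373 kept their direction and their side of the threshold (counts of calls, within 1.5 times), 24 counts of calls moved, 9 values reversed, 5 passed newly and 10 no longer passed; of 272 values for single V pairs, 217 kept both, 48 no longer passed and 7 reversed. Beyond the changes given beside the results, the cause of which was not tested, these were as follows. Among TET clonotypes of at least 0.1% of counts, the strain differences in length (-0.182) and in TRBV13 share (23.1 points) reversed. By counts, TRBJ2-4 in TET over CD8 reversed to 1.07 (adjusted p = 0.159), as did the TRBV1 (-0.66), TRBV20 (-0.43) and TRBV5 (-0.47) pairs. Without single-count clonotypes the TRBJ2-4 call gave -0.15 (adjusted p = 0.161) and 4 V pairs passed in place of 9. The TRBV13 pair between strains in CD8 reversed to 0.012 with J by nucleotides, to 0.043 without single counts and, as libraries were left out, ranged from -0.077 to 0.0051. The pairs called between strains were 0, not 1, in TET with amino acid clonotypes, counts, DESeq2, J by nucleotides, no filter, no possible carry-over, no single counts, TMM factors and without WT TET 2 and mutant TET 4, and 0 in CD8 with amino acid clonotypes, counts, DESeq2 and no filter. Weighting by counts shortened TET to -1.10 residues.

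Leaving out 1 library at a time gave 5.93 to 12.4 points for the share of counts in TET over CD8, -11.5 to 1.32 points between strains in TET, and -0.69 to 0.24 for relative size there. The edgeR fold changes ranged from -0.24 to -0.068 in TET over CD8, lost without mutant TET 2 or 3, WT CD8 2 or any mutant CD8 library, from -0.79 to -0.43 between strains in TET (-0.84 with TMM factors) and from 0.10 to 0.16 in CD8. V pairs called numbered 7 to 11, 0 to 1 and 0 to 1. With the mouse as a replicate block (a pairing from the design text), TRBV13 share differed by 28.4 points (adjusted p = 0.0938), the TRBJ2-4 fold change was -0.11 and 8 V pairs passed; no other call of a main comparison changed. WT TET libraries, with 9 to 18 TRBJ2-4 clonotypes, limit every comparison in TET.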
